A study of Mus musculus with 6 samples.

Results

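The tubulins and a set of proteins that bind tubulin or microtubules were followed in RNA pulled down from mouse retina, comparing SOHU with naive eyes. The members were every gene of the count table whose mouse symbol is that of an alpha-, beta- or gamma-tubulin (Tuba, Tubb, Tubg), a stathmin (Stmn1 to Stmn4), an end-binding protein (Mapre1 to Mapre3), a collapsin response mediator protein (CRMP; Crmp1 and Dpysl2 to Dpysl5), or Map1a, Map1b, Map2, Map4, Map6, Map7, Mapt or Dcx. This gave 37 genes of the 55335 listed. The SOHU group comprised 3 libraries from wild-type C57BL/6 mice aged 10 weeks in which silicone oil had been put into the anterior chamber 1 week earlier, a model of raised eye pressure named in the labels as silicone oil-induced ocular hypertension under-detected. The naive group comprised 3 libraries from mice of the same strain, age and genotype. In both groups retinas were homogenised, HA-tagged material was captured with an anti-HA antibody on magnetic beads, and the RNA on the beads was sequenced. The labelled cells are retinal ganglion cells, which send their axons through the optic nerve to the brain. The tagged protein and what drives it are not stated. Nor is it stated that each library is a different animal, and the p-values therefore reflect the spread between samples whose differences could be technical.

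Microtubules are hollow polymers of alpha- and beta-tubulin dimers that carry axonal transport and give axons and dendrites their shape. Mammals make several isotypes of each tubulin, which are alike over most of their length and differ mainly in the acidic C-terminal tail, where modifying enzymes and many partners act. Gamma-tubulin nucleates new microtubules, stathmins hold free dimers, end-binding proteins track growing ends, CRMPs bind dimers and act in axon growth, and the structural MAPs, such as tau, decorate the lattice.

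Total counts lay between 21691354 and 25544710 in the SOHU libraries and between 22303220 and 26824919 in the naive libraries. Of 20 ganglion cell markers, none of them a member, 18 fell and none rose, with a median log2 fold change of -1.06. Isl2 (-1.33), Nefh (-1.37), Nefm (-1.44) and Nefl (-1.23) had the smallest p-values. Together these markers held 0.196 to 0.283% of all counts in the SOHU libraries, against 0.409 to 0.648% in the naive libraries. Of 14 markers of Müller glia and astrocytes, 10 rose and none fell, and their summed share was 2.75 to 4.94% in the SOHU libraries and 1.34 to 1.88% in the naive libraries. Rod markers held 0.372 to 0.611% in SOHU and 0.418 to 0.506% in naive libraries, and the shares of the other cell types follow beside the genes that rose. No marker of any list was without reads in a library, so RNA of several cell types was present in both groups. Fewer cells of a type, less RNA per cell and a different yield of the pull-down cannot be told apart, since no library of unprocessed retina is among the samples.

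Most of the members were lower in the pulled-down RNA of the SOHU libraries. Of the 34 members with enough reads to be tested, 20 fell and 3 rose at an adjusted p under 0.05 (58.8% and 8.82% of them), where 5.93% of all 17687 tested genes fell and 8.02% rose. The median log2 fold change of the tested members was -0.63, against 0.014 for all genes. The libraries were also scaled to the summed counts of the ganglion cell markers, among which Nefl and Sncg had the most counts. Nefl averaged 732 CPM (counts scaled to library size) in SOHU and 1720 CPM in naive libraries, and Sncg 441 and 1104 CPM. How far the outcome, including which members lay below 0, rested on Nefl and Sncg was not tested. Scaling to this sum moved all genes upward, to a median log2 fold change of 1.16, and called 73.1% of all genes higher and 0.0113% lower in edgeR. On that scale the members' median was 0.52, and 12 of 34 members (35.3%) were called higher and 0 lower. An unadjusted p under 0.05 was reached by 14 members, all of them higher, and by 13387 of all 17687 genes, 13385 of them higher. A sign on that scale therefore mostly gives the shift common to all genes. Relative to the median of all genes, 29 of the 34 members lay lower on either scale. The rescaling moves all genes by nearly the same amount, so this agreement was nearly fixed in advance. No other tool was run with marker scaling. The SOHU and naive libraries did not overlap in 30 members, 27 lower and 3 higher. Such separation was seen in 19.7% of all genes in the lower and 19.3% in the higher direction. All 37 members together held 0.805, 0.763 and 0.957% of the counts in SOHU replicates 1 to 3 and 1.36, 1.18 and 1.18% in naive replicates 1 to 3. The remaining 3 members, Tuba3a, Tuba3b and Tubb1, had at most 4 reads in any library and were not tested.

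**Figure D1:**
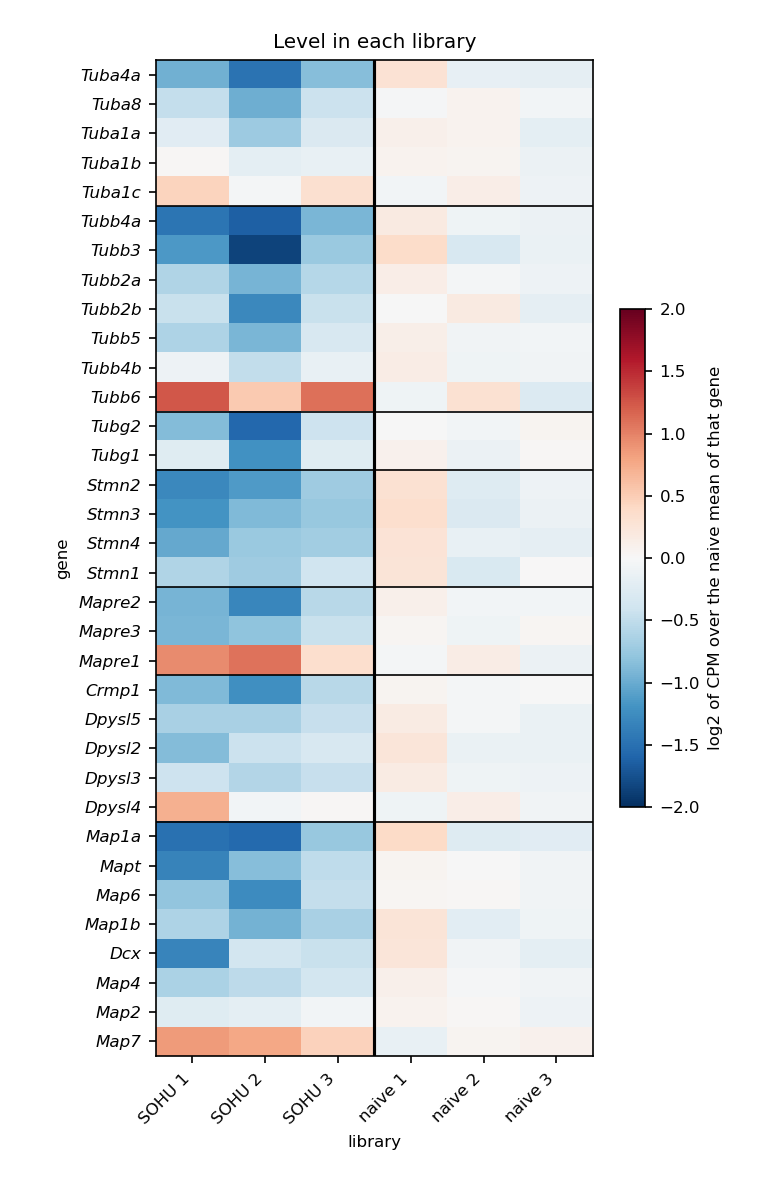
Level of each tested member (rows, grouped by family) in each library (columns, SOHU left of naive), as the log2 of CPM over that gene's naive mean, with libraries scaled over all genes. Rows are blue in all SOHU libraries for most genes, deepest for Tubb3 in SOHU replicate 2, and red for Tubb6, Mapre1 and Map7. With libraries scaled to the ganglion cell markers, where the median of all genes is 1.16, only Tubb3, Tubb4a and Map1a have a log2 fold change below 0.

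The number of calls depended on single libraries, over all genes as well as over the members. Without naive replicate 1, edgeR and limma-voom called 0 of all 18198 genes and so 0 members, while 25 members had an unadjusted p under 0.05 in both tools. Of all genes, 3919 in edgeR and 3930 in limma-voom had such a p. DESeq2 then called 15 members lower and 3 higher, against 2.17% and 3.36% of all genes. Without naive replicate 3, edgeR and limma-voom called 0 of all 18320 genes, while 27 members in edgeR and 28 in limma-voom had an unadjusted p under 0.05. So did 4251 of all genes in edgeR and 4405 in limma-voom. DESeq2 then called 19 members lower and 3 higher, against 3.06% and 3.99% of all genes. Without SOHU replicate 2, edgeR called 1 member lower and 1 higher, against 0.254% and 1.60% of all genes. There limma-voom called 0 of all 18126 genes, with 28 members and 4733 of all genes at an unadjusted p under 0.05. DESeq2 then called 19 members lower and 3 higher, against 3.38% and 4.54% of all genes. Without naive replicate 2, edgeR called 9 members lower and 1 higher, against 1.44% and 3.40% of all genes. There limma-voom called 11 lower and 1 higher, against 1.92% and 3.27%, and DESeq2 19 lower and 3 higher, against 3.58% and 4.97%. Omitting a library turned the sign of a single tested member, Dpysl4, which was not called in the full comparison.

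Among the beta-tubulins, 4 of 7 tested isotypes fell, 1 rose and 2 did not pass, where 5.93% of all genes fell and 8.02% rose. With marker scaling, which lifts the median of all genes to 1.16, Tubb3 and Tubb4a stayed below 0. Tubb4a, an isotype concentrated in brain, had the lowest log2 fold change of all members. It had 304, 268 and 444 CPM (counts scaled to library size) in SOHU replicates 1 to 3 and 948, 785 and 771 CPM in naive replicates 1 to 3, so that the highest SOHU library was below the lowest naive library. This is a 2.46-fold fall (log2 fold change -1.30, SE 0.20, edgeR adjusted p = 0.0101). Tubb3, the neuron-specific class III isotype that is widely stained to mark ganglion cells, had 222, 136 and 293 CPM in SOHU libraries, against 629.8, 391 and 447 CPM in naive libraries. Its groups did not overlap either, but relative to its mean it varied more within each group than Tubb4a did, and its fall was 2.26-fold (-1.17, SE 0.27, adjusted p = 0.0243). Tubb2a, the most abundant isotype per length in both groups, had 663, 525 and 676 CPM in SOHU libraries and 1102, 978 and 934 CPM in naive libraries (-0.69, SE 0.15, adjusted p = 0.0193). Tubb5, which is made by most cell types, had 287, 235 and 351 CPM in SOHU libraries and 478, 421 and 424 CPM in naive libraries (-0.60, SE 0.16, adjusted p = 0.0387). SOHU replicate 2 was the lowest library for each of these 4 isotypes.

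Reads of different isotypes can be told apart where their sequences differ, in the untranslated regions as well as in the coding sequence, and the coding ends, which specify the C-terminal tails, are shown as an example. The last 60 coding bases, stop codon included, are given 5′ to 3′ from the GENCODE M21 transcripts on mm10, and capitals mark bases that do not match Tubb5 in a pairwise alignment of the coding sequences.
Tubb4a: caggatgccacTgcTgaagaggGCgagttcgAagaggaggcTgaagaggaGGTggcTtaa
Tubb3: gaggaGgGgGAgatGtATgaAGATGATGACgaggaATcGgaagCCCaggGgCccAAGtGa
Tubb2a: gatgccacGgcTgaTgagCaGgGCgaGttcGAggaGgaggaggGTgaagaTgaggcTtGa
Tubb4b: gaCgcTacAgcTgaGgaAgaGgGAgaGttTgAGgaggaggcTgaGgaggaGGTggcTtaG
Tubb5: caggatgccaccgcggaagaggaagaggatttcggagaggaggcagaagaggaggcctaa
These lie, in the same order, at chr17:57080690-57080749 (minus strand), chr8:123421623-123421682 (plus strand), chr13:34074468-34074527 (minus strand), chr2:25222308-25222367 (minus strand) and chr17:35834982-35835041 (minus strand), each within a single exon. Tubb3 differed from Tubb5 at 29 of these 60 bases, Tubb4b at 20, Tubb2a at 16 and Tubb4a at 10.

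Over the whole coding sequence, the share of windows that recur in other genes differed between isotypes. Untranslated regions, which the counts also cover, were not compared. In Tubb3 and Tubb6 no window of 50 bases recurred in a transcript of another gene, and in Tubb5 and Tubb4a 0.0778 and 0.311% of windows did. Tubb2a and Tubb2b, which are 96.5% identical and lie 48.7 kb apart on chromosome 13, shared 55.2% of their windows with each other. Their separate counts are uncertain for that reason. Tubb2b had 43.8, 24.4 and 43.9 CPM in SOHU libraries and 59.4, 67.3 and 52.5 CPM in naive libraries and did not pass (-0.68, SE 0.22, adjusted p = 0.0703). With the counts of both genes summed, a step added after seeing the data, the level was 658.9 ± 94.9 CPM in SOHU and 1064.5 ± 89.3 CPM in naive libraries (SD, n = 3 each; log2 fold change -0.69, SE 0.15, edgeR adjusted p = 0.0204). Tubb4b, an isotype made by many cell types, shared 52.4% of its windows with the pseudogene Tubb4b-ps1. It had 486, 369.9 and 470.4 CPM in SOHU libraries and 582, 491 and 495 CPM in naive libraries, and its log2 fold change of -0.24 (95% interval -0.57 to 0.09, adjusted p = 0.302) did not pass.

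Tubb6, the class V isotype, was the beta-tubulin that rose. The gene spans chr18:67390717-67402749 on mm10. Its level was 35.4, 21.6 and 32.3 CPM in SOHU libraries and 14.1, 18.6 and 12.4 CPM in naive libraries. The lowest SOHU library was close to the highest naive library but above it, and the fold was 1.98 (0.99, SE 0.23, edgeR adjusted p = 0.0240). Per length it remained the least abundant of the tested beta-tubulins in both groups, at 12.2 ± 2.97 RPKM in SOHU and 6.17 ± 1.32 RPKM in naive libraries (CPM per kilobase of exon, SD, n = 3 each).

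Per length, the order of the beta-tubulins differed between the groups. In SOHU libraries Tubb2a (386 ± 51.9 RPKM) was followed by Tubb4b (212 ± 30.2), Tubb4a (152 ± 41.8), Tubb3 (116 ± 42.0), Tubb5 (87.4 ± 17.6), Tubb2b (16.3 ± 4.91) and Tubb6. In naive libraries Tubb2a (624 ± 54.3 RPKM) was followed by Tubb4a (374 ± 44.1), Tubb3 (262 ± 66.8), Tubb4b (250.2 ± 24.5), Tubb5 (133 ± 9.74), Tubb2b (26.0 ± 3.23) and Tubb6 (SD, n = 3 each). The spreads of Tubb4b and Tubb4a, of Tubb4a and Tubb3, of Tubb3 and Tubb5 and of Tubb2b and Tubb6 overlapped in SOHU libraries, and those of Tubb3 and Tubb4b in naive libraries.

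The makeup of the beta-tubulin pool, which does not depend on how libraries are scaled, was therefore compared. Tubb4a made up 13.4, 15.3 and 17.5% of the summed counts per kilobase in SOHU libraries and 22.4, 22.5 and 22.2% in naive libraries. Tubb4b made up 22.8, 22.5 and 19.8% in SOHU and 14.6 to 15.2% in naive libraries. Tubb4a thus ranked above Tubb4b in every naive library and below it in every SOHU library, and the shares of neither overlapped between the groups. The Tubb6 share was 1.42, 1.13 and 1.16% in SOHU and 0.304, 0.487 and 0.326% in naive libraries, and that of Tubb5 8.45, 8.97 and 9.27% against 7.56, 8.08 and 8.17%. Each of these 4 shares had an exact permutation p = 0.1 (two-sided, 0.133 after adjustment over 12 shares), the smallest that 3 libraries against 3 allow, so a share could not pass a threshold of 0.05. The share of Tubb3 overlapped, at 11.7, 9.27 and 13.8% in SOHU and 17.7, 13.4 and 15.4% in naive libraries (exact permutation p = 0.2). Those of Tubb2a (39.6 ± 2.41% in SOHU, 37.3 ± 1.37% in naive) and Tubb2b (1.63 ± 0.265% and 1.57 ± 0.269%, SD, n = 3 each) overlapped as well.

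**Figure D2:**
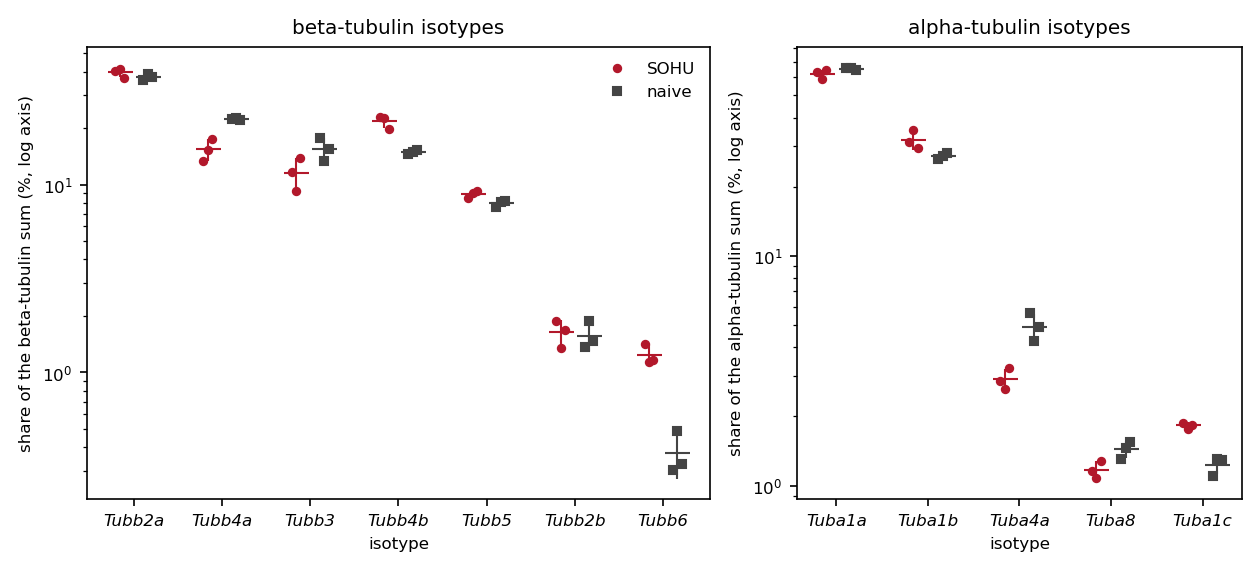
Share of each isotype (x axis) in the summed counts per kilobase of its family (y axis, percent, log axis), beta-tubulins on the left and alpha-tubulins on the right. Points are single libraries, SOHU left of naive, with the mean and SD over 3 libraries. Tubb4b, Tubb5, Tubb6, Tuba1b and Tuba1c lie higher and Tubb4a, Tuba4a, Tuba8 and Tuba1a lower in SOHU libraries without overlap.

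Of the alpha-tubulins, 2 of 5 tested isotypes fell and none rose, against 5.93% and 8.02% of all genes. Both isotypes that fell lay above 0 but below the median of all genes with marker scaling. Tuba4a, an isotype encoded without a final tyrosine, had 144, 102 and 156 CPM in SOHU libraries and 346, 253 and 249 CPM in naive libraries. The groups were far apart, with a 2.11-fold fall (-1.08, SE 0.19, edgeR adjusted p = 0.0137). Tuba4a shares 1379 exon bases with Stk16 on the opposite strand, and the strand setting of the counting is not stated. Stk16 itself had 89.8 ± 3.73 CPM in SOHU and 90.3 ± 6.08 CPM in naive libraries (SD, n = 3 each; log2 fold change -0.01). Tuba8 had 36.1, 25.5 and 37.3 CPM in SOHU libraries and 49.4, 52.8 and 48.3 CPM in naive libraries, with no overlap and a smaller fall (-0.61, SE 0.17, adjusted p = 0.0423).

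The bulk of the alpha-tubulin counts came from Tuba1a, the isotype most used by growing neurons, and Tuba1b. Over whole coding sequences Tuba1a and Tuba1b were 98.3% identical, and 93.9% of the 50-base windows of Tuba1a, 95.6% of those of Tuba1b and 90.6% of those of Tuba1c recurred in another gene. Counts of the 3 genes are therefore uncertain as single values.

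As deposited, Tuba1a had 1559, 1106 and 1494 CPM in SOHU libraries and 1965, 1908 and 1594 CPM in naive libraries (log2 fold change -0.39, SE 0.17, edgeR adjusted p = 0.146). Tuba1b had 805, 691 and 714 CPM in SOHU libraries and 823, 817 and 724 CPM in naive libraries (-0.10, adjusted p = 0.654). Tuba1c had 59.0, 42.2 and 54.1 CPM in SOHU libraries and 41.9, 47.8 and 40.5 CPM in naive libraries (0.25, adjusted p = 0.312). None of the 3 passed, and only Tuba1a was without overlap. Their sum, also added after seeing the data, was 2175 ± 301.2 CPM in SOHU and 2654 ± 256.9 CPM in naive libraries (SD, n = 3 each), a log2 fold change of -0.29 (95% interval -0.64 to 0.06, adjusted p = 0.247).

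Within the alpha-tubulin pool, Tuba4a made up 2.84, 2.64 and 3.26% in SOHU and 5.62, 4.26 and 4.89% in naive libraries. Tuba1c made up 1.88, 1.77 and 1.83% in SOHU and 1.10, 1.30 and 1.29% in naive libraries, and Tuba1b 32.1 ± 3.08% and 27.2 ± 0.821% (SD, n = 3 each). Tuba8 held 1.17 ± 0.0962% in SOHU and 1.44 ± 0.119% in naive libraries, and Tuba1a 62.0 ± 2.67% and 65.2 ± 0.876%. None of the 5 shares overlapped, although Tuba1a came within rounding of doing so (64.2% in both SOHU replicate 3 and naive replicate 3), each with an exact permutation p = 0.1, the smallest possible. Those of Tuba1a, Tuba1b and Tuba1c carry the same doubt about read assignment.

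The gamma-tubulins sit 29.5 kb apart on chromosome 11 and are 93.3% identical. Tubg2, the copy enriched in brain, fell with libraries scaled over all genes and had 0.22, below the median of all genes, with marker scaling. It had 57.2, 35.3 and 78.2 CPM in SOHU libraries and 104, 100.3 and 109 CPM in naive libraries (-0.87, SE 0.24, edgeR adjusted p = 0.0423). SOHU replicate 2 was again lowest. Tubg1, the general form, had 115, 58.9 and 116 CPM in SOHU libraries and 145, 127 and 139 CPM in naive libraries and did not pass (-0.50, SE 0.23, adjusted p = 0.174). The 2 genes shared 18.7% of their 50-base windows.

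Stathmins were lower as a family, with 3 of 4 called and all 4 without overlap. Of all genes, 5.93% were called lower and 19.7% were lower without overlap. With marker scaling each stathmin lay above 0 but below the median of all genes. Stmn2, a neuronal stathmin carried into axons and growth cones, had 192, 213 and 286 CPM in SOHU libraries and 577, 392 and 434 CPM in naive libraries, a 2.03-fold fall (-1.02, SE 0.19, edgeR adjusted p = 0.0154). Stmn3, a neuronal relative and the most abundant stathmin per length in both groups, had 478, 596 and 646 CPM in SOHU libraries and 1383, 899 and 1007 CPM in naive libraries (-0.93, SE 0.19, adjusted p = 0.0173). Stmn4, also neuronal, had 42.1, 51.0 and 52.7 CPM in SOHU libraries and 103, 77.3 and 75.2 CPM in naive libraries (-0.81, SE 0.17, adjusted p = 0.0174). In all of these naive replicate 1 was the highest library and SOHU replicate 1 the lowest, unlike the tubulins, where SOHU replicate 2 was the lowest SOHU library in every tested gene. Stmn1, the form found in many cell types, had 564, 521 and 653 CPM in SOHU libraries and 1021, 691 and 857 CPM in naive libraries and narrowly missed the threshold (-0.56, SE 0.17, adjusted p = 0.0538). Its value is uncertain, since 87.5% of its coding windows recurred in the predicted gene Gm11223. No 50-base window of Stmn2, Stmn3 or Stmn4 recurred elsewhere.

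The end-binding proteins split. Mapre3, the form enriched in neurons, had 52.3, 56.6 and 72.9 CPM in SOHU libraries and 101, 93.5 and 102 CPM in naive libraries (-0.71, SE 0.15, edgeR adjusted p = 0.0199). Mapre2 had 121, 93.4 and 157 CPM in SOHU libraries and 247, 221 and 223 CPM in naive libraries (-0.90, SE 0.18, adjusted p = 0.0172). Both fell with libraries scaled over all genes, and with marker scaling they lay above 0 but below the median of all genes. Mapre1, the general plus-end tracking form, rose 1.77-fold with libraries scaled over all genes (0.82, SE 0.19, edgeR adjusted p = 0.0248). It had 369.8, 409 and 242 CPM in SOHU libraries and 186, 213 and 177 CPM in naive libraries. With marker scaling its log2 fold change of 2.01 was above the median of all genes, 1.16. SOHU replicate 3 was nearest to the naive libraries. The gene spans chr2:153741274-153773310 on mm10. The family as a whole held 0.0489 to 0.0575% of the counts in SOHU libraries and 0.0509 to 0.0530% in naive libraries, ranges that overlap.

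Among the CRMPs, 3 of 5 fell and none rose, against 5.93% and 8.02% of all genes. With marker scaling all 5 were above 0, of which only Dpysl4 was above the median of all genes. Crmp1 had 117, 91.7 and 146 CPM in SOHU libraries and 223, 209 and 213 CPM in naive libraries, a 1.82-fold fall (-0.86, SE 0.17, edgeR adjusted p = 0.0160). Dpysl5 had 22.6, 22.7 and 25.9 CPM in SOHU libraries and 39.7, 34.6 and 32.2 CPM in naive libraries (-0.58, SE 0.15, adjusted p = 0.0332), and Dpysl3 had 82.1 ± 5.01 CPM in SOHU and 115 ± 12.1 CPM in naive libraries (SD, n = 3 each; -0.49, SE 0.13, adjusted p = 0.0386). In each of these the groups stood apart. Dpysl2, the best studied of the family for its role in axon growth, had 158, 215 and 232 CPM in SOHU libraries and 341, 262 and 263 CPM in naive libraries and did not pass (-0.52, SE 0.18, adjusted p = 0.0761). Dpysl4 had 202, 119 and 125 CPM in SOHU libraries and 117, 136 and 118 CPM in naive libraries. Its value above 0 (0.26, adjusted p = 0.405) rested on SOHU replicate 1 and was -0.03 without it.

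In the structural MAPs 5 of 8 fell and 1 rose, against 5.93% and 8.02% of all genes. With marker scaling only Map1a stayed below 0 (-0.06) and only Map7 lay above the median of all genes. Map1a, the form of mature neurons, had 37.3, 35.8 and 62.0 CPM in SOHU libraries and 138, 88.4 and 89.5 CPM in naive libraries, a 2.33-fold fall (-1.22, SE 0.25, edgeR adjusted p = 0.0174). It shares 272 exon bases with Ppip5k1 on the opposite strand, a gene with more reads than Map1a (85.8 ± 8.07 CPM in SOHU and 107 ± 4.01 CPM in naive libraries, SD, n = 3 each), so part of its count is uncertain. Mapt, which encodes the axonal protein tau, had 126, 175 and 221 CPM in SOHU libraries and 329, 315 and 302 CPM in naive libraries (-0.86, SE 0.19, adjusted p = 0.0219). The naive libraries were close together and the SOHU libraries spread over a wider range, all of them lower. Map6, which protects microtubules from cold, fell 1.74-fold (-0.80, SE 0.19, adjusted p = 0.0251), and Map1b, prominent in growing axons, had 374, 298 and 366 CPM in SOHU libraries and 681, 496 and 537 CPM in naive libraries (-0.72, SE 0.16, adjusted p = 0.0216). Map4, the form of non-neuronal cells as well as neurons, had 549 ± 51.4 CPM in SOHU and 779.7 ± 48.0 CPM in naive libraries (SD, n = 3 each; -0.51, SE 0.13, adjusted p = 0.0347).

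Map2, the MAP of dendrites, was the structural MAP with the smallest difference. It had 93.0, 96.7 and 106 CPM in SOHU libraries and 116, 112 and 103 CPM in naive libraries, which overlapped (-0.16, 95% interval -0.44 to 0.11, edgeR adjusted p = 0.402). Dcx, a protein of immature neurons, was near the floor of the tested members with 50 to 94 reads in SOHU and 102 to 159 reads in naive libraries (-0.65, SE 0.30, adjusted p = 0.171). Map7, which recruits kinesin to microtubules and is prominent in epithelia, rose with libraries scaled over all genes. With marker scaling its log2 fold change of 1.86 was above the median of all genes, 1.16. The gene spans chr10:20148471-20281590 on mm10. Its levels were 122, 115 and 92.3 CPM in SOHU libraries and 60.4, 69.9 and 71.3 CPM in naive libraries, without overlap (0.71, SE 0.15, adjusted p = 0.0182).

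**Figure D3:**
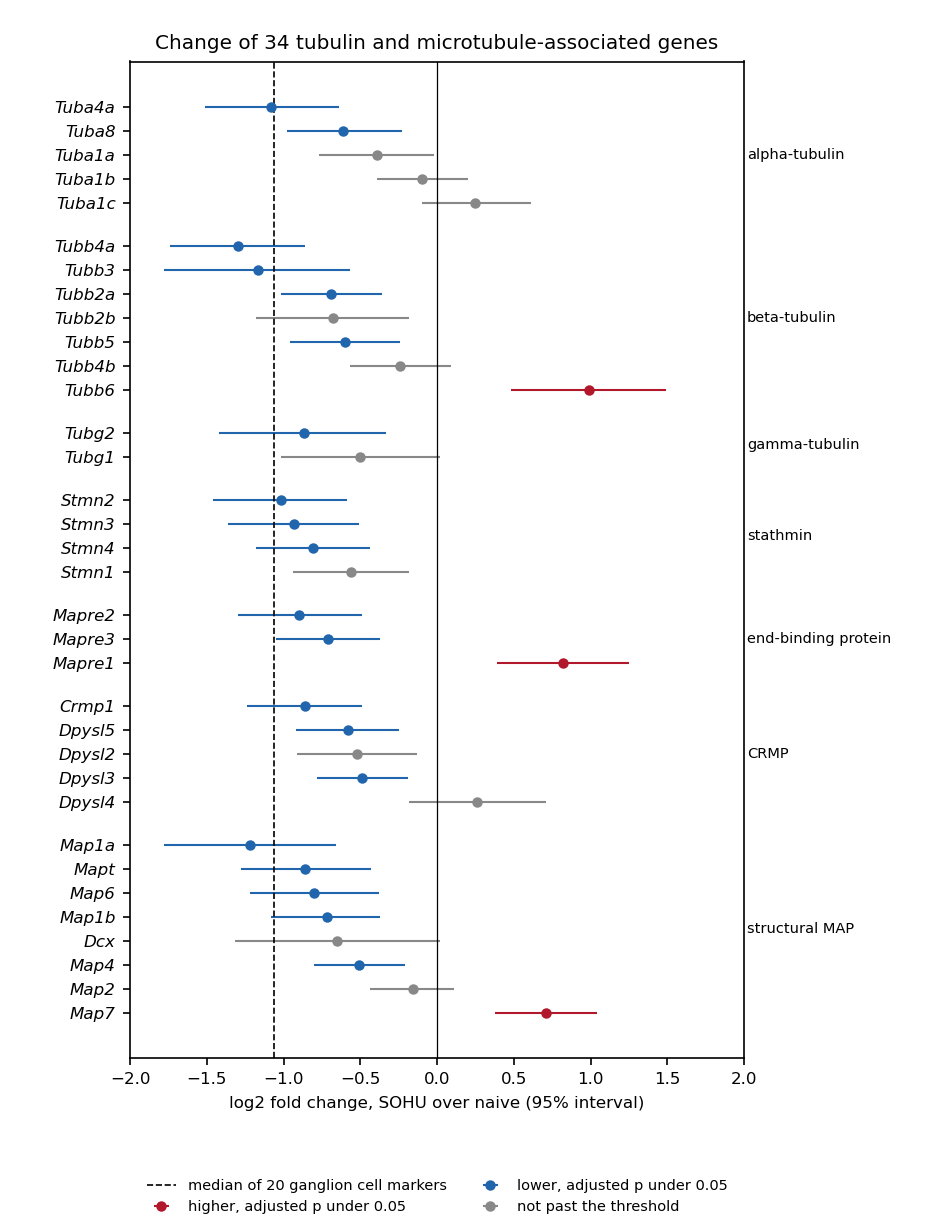
Log2 fold change of SOHU over naive (x axis, points with 95% intervals) for the 34 tested members (y axis, grouped by family), with libraries scaled over all genes. Blue genes fell, red genes rose and grey genes did not pass, and the dashed line is the ganglion cell marker median of -1.06. The points left of that line, Tuba4a, Tubb3, Tubb4a and Map1a, include the 3 members below 0 when libraries are scaled to those markers, where the median of all genes is 1.16.

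The genes that rose did so beside a change in other cell types' markers. Beside the glial markers given above, 5 of 11 tested markers of microglia and leukocytes rose. The summed share of that whole list was 0.0106 to 0.0249% in SOHU and 0.000928 to 0.0210% in naive libraries. Most of that sum in 4 of the 6 libraries was Cd74, which did not pass, and without it the share was 0.00405 to 0.0104% in SOHU and 0.000645 to 0.00267% in naive libraries. Of 5 tested markers of endothelium and pericytes 3 rose, and the list held at least 0.0774% in each SOHU library and at most 0.0409% in each naive library. Most of that sum in every library was Kdr (707 ± 147 CPM in SOHU and 283 ± 16.3 CPM in naive libraries, SD, n = 3 each). Cldn5 and Rgs5 did not pass (edgeR adjusted p = 0.198 and 0.0624). Pecam1, with 3 to 9 reads in SOHU and 5 to 13 in naive libraries, was not tested. Of 4 tested oligodendrocyte markers 1 rose, and their share was 0.0163 to 0.0367% in SOHU and 0.0106 to 0.0136% in naive libraries. The part of these in the rises of Tubb6, Mapre1 and Map7 was not tested. Amacrine and horizontal cell markers, which belong to other retinal neurons that make neuronal tubulins, had 4 of 11 lower and none higher. They held 0.140 to 0.194% of counts in SOHU and 0.240 to 0.268% in naive libraries, and their part in the falls was not tested. Bipolar cell markers held 0.0706 to 0.0929% in SOHU and 0.0721 to 0.104% in naive libraries, and cone markers 0.0177 to 0.0277% and 0.0151 to 0.0229%, all overlapping.

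To set members of a family against each other without any scaling between libraries, log2 ratios per length were formed within each library for 4 pairs. The pairs were picked because their members differed in these libraries, so the ratios describe the choice and were not tested. The ratio of Tubb6 to Tubb3 was -3.03, -3.04 and -3.57 in SOHU and -5.87, -4.78 and -5.56 in naive libraries, a difference of 2.19 on the log2 scale. For Tubb4a to Tubb4b it was -0.77, -0.56 and -0.18 in SOHU and 0.61, 0.58 and 0.54 in naive libraries, so that the naive libraries all had more Tubb4a and the SOHU libraries all had more Tubb4b. For Mapre1 to Mapre3 it was 1.65, 1.68 and 0.55 in SOHU and -0.30, 0.01 and -0.37 in naive libraries. For Map7 to Mapt it was -0.12, -0.69 and -1.34 in SOHU and -2.52, -2.25 and -2.16 in naive libraries.

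Each family was then set against the ganglion cell markers within the same library, as the log2 ratio of summed counts. The same ratio formed from all counts averaged 8.80 in SOHU and 7.64 in naive libraries, a difference of 1.16 that any gene of unchanged share would show. On average all 7 families were higher relative to the markers in SOHU libraries, by less than this in all but the end-binding proteins. The alpha-tubulin ratio averaged 0.06 ± 0.244 in SOHU and -0.75 ± 0.328 in naive libraries, a difference of 0.81. The end-binding proteins differed most, by 1.17, which is close to the 1.16 of an unchanged share. The beta-tubulin ratio averaged -0.19 ± 0.148 in SOHU and -0.58 ± 0.221 in naive libraries (difference 0.39), and that of the stathmins -0.65 ± 0.124 and -1.02 ± 0.0815 (difference 0.37, SD, n = 3 each). CRMPs differed by 0.73 and structural MAPs by 0.60. All these had an exact permutation p = 0.1 (0.117 after adjustment over 7 ratios), the smallest that 3 libraries against 3 allow. The test asked for a difference from 0, which a family of unchanged share would also show. These p-values therefore do not tell whether a family changed, and a difference from 1.16 was not tested. For the gamma-tubulins the difference of 0.45 had overlapping groups (exact permutation p = 0.3).

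**Figure D4:**
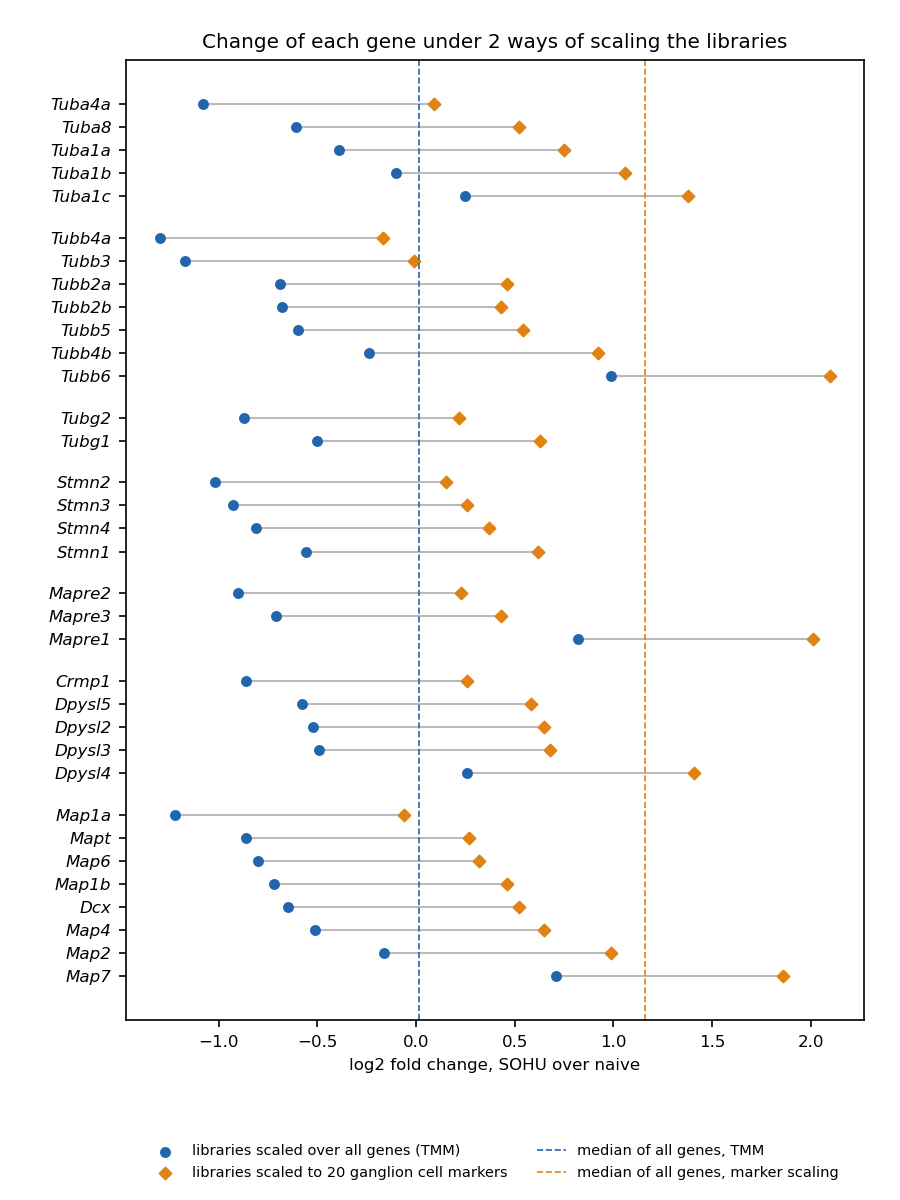
Log2 fold change of SOHU over naive (x axis) for each tested member (y axis) with libraries scaled over all genes (blue circles) and to the 20 ganglion cell markers (orange diamonds). Dashed lines mark the median of all genes, 0.014 and 1.16, and 29 of the 34 members lie left of it on each scale. The shift is nearly the same for all genes, so this position could change little. Only Tubb4a, Tubb3 and Map1a stay below 0 under marker scaling, at -0.17, -0.01 and -0.06, and Tubb6, Mapre1 and Map7 lie above 0 under both.

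Other genes of microtubule biology were listed as companions. Of 85 listed by role, covering tubulin folding, tubulin modification, severing, both microtubule ends, nucleation, other binding proteins and their kinases, 81 were tested, of which 9 fell and 4 rose (11.1% and 4.94%), with a median log2 fold change of -0.13. Set beside the 5.93% and 8.02% of all genes, this share is nearer the background than that of the members. The 6 tubulin folding genes had log2 fold changes between -0.25 and -0.05 and did not pass. Those with the smallest p among the falls were Map7d2 (-0.99, SE 0.20, adjusted p = 0.0165), Cdk5r2, an activator of the kinase Cdk5 (-0.86), Map6d1 (-0.84), Tppp, which promotes tubulin assembly (-0.88), Map9 (-0.70) and the glutamylase gene Ttll7 (-0.80). With marker scaling 61 of the 81 (75.3%) were higher and 0 lower in edgeR, close to the 73.1% of all genes called higher on that scale. At an unadjusted p under 0.05, 62 were higher and 0 lower, against 13385 and 2 of all 17687 genes. The 4 that rose were Nav2 (1.05, SE 0.18, adjusted p = 0.0127), the plus-end protein gene Clasp1 (0.79), Svbp, partner of the enzymes that remove the tyrosine of alpha-tubulin (1.08), and Nedd1, which brings gamma-tubulin to its sites (0.94).

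Several members are neighbours on a chromosome. Dpysl5 and Mapre3, 15.3 kb apart on chromosome 5, both fell with libraries scaled over all genes. Tuba1b, Tuba1a and Tuba1c lie side by side on chromosome 15, with gaps of 15.3 and 76.2 kb, and had log2 fold changes of -0.10, -0.39 and 0.25, none of which passed and whose separate counts are uncertain.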

How the data were processed

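Per the labels' protocols, RNA was isolated from anti-HA pull-downs of retina. The deposited values are unnormalised counts of reads per gene, in 6 single files and in 1 joint table with equal values. The submitters' processing notes name featureCounts, HISAT, HISAT2, Trim Galore, MultiQC and bcl2fastq 2.17 and the build mm10. For the annotation release, strand setting and handling of multi-mapped reads, the answer is not given in the sources used here.

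Symbols came from GENCODE M21 (55154 of 55335 genes matched). Low counts were filtered by filterByExpr, libraries scaled by TMM, and SOHU was compared with naive by the quasi-likelihood test of edgeR 4.0.16 (R 4.3.3, robust, group only), adjusted by Benjamini-Hochberg over 17687 genes at 0.05. CPM and RPKM are computed here from the counts. Intervals are 95%, and errors are SD over 3 libraries or SE of the fit. Alternatives used DESeq2 1.42.0, limma 3.58.1, other scalings, no filter, omitted libraries and a replicate block. Isotype shares and family ratios were tested with exact two-sided permutation tests (SciPy 1.17.1). The fit was tested on simulated data: of 17323 genes in that SOHU and naive comparison it called 4% of those changed 1.5-fold, 43.5% at 2-fold, 66% at 3-fold and 85.4% at 4-fold, with 7 false among 101 calls. The simulation changed 200 genes, whereas 2467 genes were called in the data. With fewer changed genes the adjusted threshold asks for a smaller p, so these shares do not give the sensitivity in the data.

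Windows of 50 bases and alignments (Biopython 1.88) used GENCODE M21 transcripts. Replicates of a group differed by a chi-square per degree of freedom of 12.6 to 79.0, so none was a second copy. The members, the companion list and the markers were chosen with earlier results of these data known. Named genes are all members, up to 6 companions in each direction and up to 4 ganglion cell markers, by smallest p. Sncg was named in addition for its high counts. Stk16, Ppip5k1, the named markers of other cell types (Cd74, Kdr, Cldn5, Rgs5 and Pecam1) and the 4 pairs were chosen after their values were seen. The coding ends of the alpha-tubulins are not reported here.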

Additional observations from a re-analysis of the deposited data

How the results depend on the processing

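Scaling to the ganglion cell markers moved the median of all genes from 0.014 to 1.16 and gave 12927 genes higher and 2 lower. It gave 12 members higher and 0 lower (unadjusted p under 0.05 in 14 members and in 13387 of all genes), and 61 companion genes higher and 0 lower, all in edgeR. With that common shift 26 members turned from a log2 fold change below 0 to 1 above 0, each still below the median of all genes: Tuba4a 0.09, Tuba8 0.52, Tuba1b 1.06, Tuba1a 0.75, Tubb4b 0.92, Tubb2a 0.46, Tubb2b 0.43, Tubb5 0.54, Tubg1 0.63, Tubg2 0.22, Stmn3 0.26, Stmn2 0.15, Stmn1 0.62, Stmn4 0.37, Mapre3 0.43, Mapre2 0.23, Dpysl5 0.58, Crmp1 0.26, Dpysl2 0.65, Dpysl3 0.68, Map2 0.99, Map6 0.32, Map4 0.65, Mapt 0.27, Map1b 0.46 and Dcx 0.52. Tuba1c (1.38), Tubb6 (2.1), Mapre1 (2.01), Dpysl4 (1.41) and Map7 (1.86) were above 0 on both scales and above that median. Without the filter on low counts 1675 genes were lower, and in DESeq2 1729 genes, with 14 companion genes lower. Over omissions of 1 library in edgeR, DESeq2 and limma-voom (the last 2 tools added after seeing the data), counts ranged from 0 to 2213 genes higher and 0 to 2277 lower, 0 to 3 members higher and 0 to 24 lower, and 0 to 5 companion genes higher and 0 to 21 lower. Omissions moved the difference in the Tubb2b share of the beta-tubulin sum between -0.0543 and 0.217 percentage points (-0.0377 without naive replicate 1) and the Dpysl4 log2 fold change between -0.03 and 0.42. Same-numbered libraries correlated at 0.163, 0.251 and 0.00399 in their deviations, and libraries of different number at -0.28 to 0.0946. The highest values, 0.251 and 0.163, were thus of same-numbered libraries, and whether the numbers pair them is not settled. With a replicate block 1178 genes were higher and 892 lower, and 3 members higher and 16 lower, and 4 companion genes higher and 6 lower. SOHU replicate 3 correlated best with naive replicate 1 (0.0761). The cause of these shifts was not tested. Depth limits Dcx most among the tested members, with 50 reads in its lowest library.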
